A study of Mus musculus with 4 samples.

Results

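A set of 10 collagen genes outside the fibrillar class was followed on 4 Affymetrix mouse expression arrays of dermal fibroblasts, the matrix-producing cells of the skin. They were Col6a1, Col6a2, Col6a3, Col8a1, Col12a1, Col14a1, Col15a1, Col16a1, Col18a1 and Col7a1, taken by name, and every probe set annotated to 1 of them and to no other gene was kept. This gave 19 probe sets for 10 genes, of 34945 such probe sets for 18193 genes in the whole table. Each of the 4 groups had 1 array. The deleted in vitro group was fibroblasts given an adenovirus with Cre recombinase, which deletes Rbpj, and its control was given an adenovirus with GFP. The deleted in vivo group was fibroblasts from mice in which both Rbpj alleles were flanked by loxP sites and a transgene labelled ColI supplied Cre, and its control carried the flanked alleles without Cre. All were labelled C57BL/6. Rbpj encodes the DNA-binding protein of Notch signalling. The sources used here give neither the age and number of the animals, nor the number of cultures, nor the promoter of the transgene beyond its label. With 1 array per group no difference within a pair has a replicate check, no p-value is given for it, and the number of arrays limits the precision.

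Non-fibrillar collagens decorate, link or anchor the thick fibrils that types I and III collagen form in the dermis. The 3 chains of type VI collagen (Col6a1, Col6a2, Col6a3) assemble into beaded microfilaments that surround cells and fibrils. Types XII, XIV and XVI (Col12a1, Col14a1, Col16a1) are fibril-associated collagens with interrupted triple helices, called FACITs, that coat fibrils and regulate their spacing. Types XV and XVIII (Col15a1, Col18a1) are multiplexins, proteoglycan collagens of basement membrane zones, and type XVIII releases the fragment endostatin. Type VIII (Col8a1) forms hexagonal networks and is made by vascular and migrating mesenchymal cells. Type VII (Col7a1) builds the anchoring fibrils that fasten the epidermal basement membrane to the dermis, and is made by keratinocytes as well as by fibroblasts. The group as labelled, of fibril-associated and beaded-filament collagens, thus held 6 genes of those classes and 4 of neighbouring classes.

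The promoters of Col7a1 and Col8a1, members that differed by 2-fold in vivo, are shown with those of Col18a1 and Col6a1, which hold the matches to the binding motifs of RBP-J kappa and AP-1. Each line gives the 250 bases before an annotated start of transcription, 5′ to 3′ on the strand of the gene, from RefSeq (GRCm38.p6), with matches to the searched motifs in capitals. Windows were found for 8 of the 10 members, and Col12a1 and Col14a1 had none here.
Col7a1, chr9:108953336-108953585 (+ strand): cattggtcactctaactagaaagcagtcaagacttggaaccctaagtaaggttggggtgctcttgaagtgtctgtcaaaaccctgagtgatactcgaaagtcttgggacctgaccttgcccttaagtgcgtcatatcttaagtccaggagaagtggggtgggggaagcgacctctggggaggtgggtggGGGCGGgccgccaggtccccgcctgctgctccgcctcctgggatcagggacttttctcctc
Col8a1, chr16:57754738-57754987 (- strand): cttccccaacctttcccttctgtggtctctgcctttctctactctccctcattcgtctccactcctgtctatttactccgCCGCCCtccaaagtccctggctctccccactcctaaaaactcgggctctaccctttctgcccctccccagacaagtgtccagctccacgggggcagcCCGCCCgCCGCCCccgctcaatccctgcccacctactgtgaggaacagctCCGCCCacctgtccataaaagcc
Col18a1, inner start, chr10:77113706-77113955 (- strand): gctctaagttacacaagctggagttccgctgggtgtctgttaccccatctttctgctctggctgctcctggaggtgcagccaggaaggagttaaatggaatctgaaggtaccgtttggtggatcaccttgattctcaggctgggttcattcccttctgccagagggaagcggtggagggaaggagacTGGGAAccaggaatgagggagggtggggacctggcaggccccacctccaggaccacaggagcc
Col18a1, outer start, chr10:77166531-77166780 (- strand): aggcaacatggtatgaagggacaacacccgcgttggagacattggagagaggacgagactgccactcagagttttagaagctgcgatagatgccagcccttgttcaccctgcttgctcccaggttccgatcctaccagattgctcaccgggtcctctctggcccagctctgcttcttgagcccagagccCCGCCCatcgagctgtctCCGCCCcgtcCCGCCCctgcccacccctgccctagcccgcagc
Col6a1, chr10:76726045-76726294 (- strand): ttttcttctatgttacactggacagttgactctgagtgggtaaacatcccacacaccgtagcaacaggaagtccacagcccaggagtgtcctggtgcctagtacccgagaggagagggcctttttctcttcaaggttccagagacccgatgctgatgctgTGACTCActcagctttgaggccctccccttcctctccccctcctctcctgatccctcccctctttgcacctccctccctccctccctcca
Motifs were searched on both strands as TGGGAA (the core recognised by RBP-J kappa, also called CSL), TGANTCA (AP-1, which reads the same on both strands in this form), GGGCGG (the GC box) and TATAAA (the TATA box), and overlapping matches were counted separately. The CSL core was found in 1 of the 10 member windows, the inner start of Col18a1, 63 bases before the start, and in 21.6% of all 32851 windows of the same length. The AP-1 motif was found in 1 member window, that of Col6a1, 90 bases before the start, and in 6.75% of all windows. The Col8a1 window held 4 GC boxes and that of Col7a1 held 1, while 32.7% of all windows held at least 1. GC boxes were also found in both Col6a2 windows (3 and 1), that of Col16a1 (1) and the outer start of Col18a1 (3). No member window held the TATA letters, which 12.4% of all windows held. These matches describe the letters in the windows only. Col6a1 and Col6a2 are neighbours on chromosome 10, with 0 protein-coding genes between them in the same RefSeq assembly, and 2 such genes (Pcbp3 and Slc19a1) separate Col6a1 from Col18a1.

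All values below are log2 expression after quantile normalization of the 4 arrays. A gene is represented by its brightest probe set, the one with the highest mean over the arrays, and other probe sets are named where they differ. A level cutoff of 5.28, the 40th percentile of gene means, left 10916 genes, among them all 10 members, and each member's brightest probe set was above it on every array. Of the 19 member probe sets, 16 had a mean above the cutoff. Markers of fibroblasts fitted the label: 13 of 13 were above the cutoff on every array, with array medians of 11.96 to 12.21. Adipocyte markers were present too, with 5 of 6 above the cutoff on every array. Their medians were 10.31 (deleted) and 10.63 (control) in vitro and 9.23 (deleted) and 9.02 (control) in vivo. Rbpj itself differed between deleted and control cells by 0.10, -1.11 and -1.34 on its 3 probe sets in vitro and by -0.49, -0.10 and -0.83 in vivo. Where those probe sets lie with respect to the deleted exons was not examined. The excess of 3′ over 5′ probe sets of control genes, a measure of RNA integrity, was lower in the deleted than in the control culture for Gapdh (0.02 deleted, 1.003 control), Actb (0.40 deleted, 1.11 control) and Pcx (2.01 deleted, 3.16 control). For Tfrc it was higher (1.45 deleted, 0.96 control), so these 4 genes did not share a direction. In vivo the excess was 0.13 (deleted) and 0.14 (control) for Gapdh, 0.15 (deleted) and 0.41 (control) for Actb, 0.83 (deleted) and 1.10 (control) for Pcx and 1.54 (deleted) and 1.25 (control) for Tfrc.

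**Figure D1:**
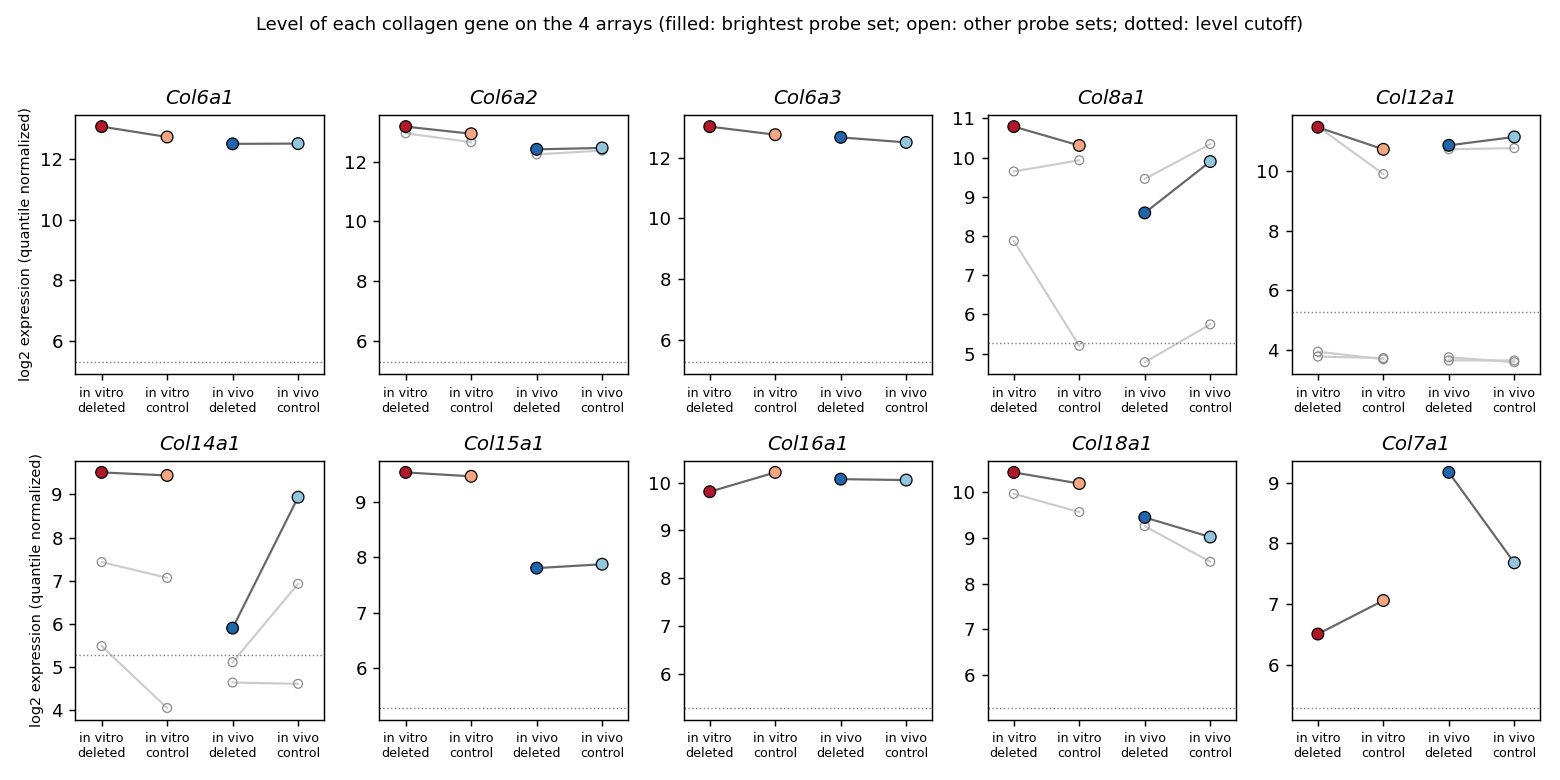
Level of each of the 10 collagen genes (y axis, log2 expression after quantile normalization) on the 4 arrays (x axis, deleted left of its control). Filled points are the brightest probe set of a gene, open points its other probe sets, lines join the arrays of a pair and the dotted line is the level cutoff of 5.28. The y axes differ between panels. Col14a1 and Col7a1 differ most within the in vivo pair, in opposite directions.

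Type XIV collagen showed the largest difference of any member. The brightest probe set of Col14a1, a FACIT that regulates fibril growth, read 5.90 in the deleted in vivo array and 8.93 in its control, an 8.16-fold lower level (log2 -3.03). In vitro it read 9.51 in the deleted and 9.44 in the control culture (0.07). The deleted in vivo array was thus the low one of the 4, and the other 3 lay between 8.93 and 9.51. A second probe set of Col14a1, 1428455_at, read 5.11 in the deleted and 6.93 in the control in vivo array, a difference of -1.81, with the deleted signal under the cutoff. It read 7.43 in the deleted and 7.07 in the control culture. Probe set 1453931_at was under the cutoff on 3 of 4 arrays and differed by 0.03 in vivo. In vitro it read 5.49 in the deleted and 4.05 in the control culture, a difference of 1.43 with the control signal under the cutoff. The in vivo difference of the brightest probe set lay at percentile 0.1 of the 10916 genes, and the range of 1.22 between the 2 probe sets above the cutoff was wide, at percentile 97.7 of genes with several. In bulk samples, fewer cells of a type and less RNA per cell cannot be told apart. The summed signal of the 13 fibroblast markers, on the log2 scale, was 15.96 in the deleted and 15.97 in the control in vivo array. This sum is weighted toward its brightest markers, Col1a1, Col1a2 and Col3a1. They lie near the top of the range, where quantile normalization gives all arrays the same set of values. The sum therefore cannot show whether the share of fibroblasts differed. Most keratinocyte and skeletal muscle markers with a probe set were at least 2-fold higher in the deleted one, with values given under type VII, and their part in the Col14a1 difference was not tested.

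Type XII collagen, the nearest relative of type XIV among the members, differed in the other system. Col12a1, a FACIT of mechanically loaded tissue, read 11.48 in the deleted and 10.74 in the control culture, a 1.67-fold higher level (log2 0.74, percentile 97.6 of genes). Its second probe set, 1427391_a_at, read 11.50 in the deleted and 9.91 in the control culture, which is 3.02-fold higher. In vivo the brightest probe set read 10.87 in the deleted and 11.15 in the control array (-0.28) and the second 10.74 in the deleted and 10.78 in the control array (-0.04). The control culture was thus the low array on both probe sets. The other 2 probe sets of Col12a1 lay between 3.59 and 3.94 on all arrays, under the cutoff, and report no level of use. Col16a1, the FACIT found near elastic microfibrils and basement membranes, read 9.81 in the deleted and 10.22 in the control culture (-0.40), and 10.08 in the deleted and 10.06 in the control array in vivo (0.02). The 3 FACIT members therefore showed 3 different patterns. Of the other FACIT genes, Col9a1, Col9a3, Col20a1 and Col22a1 were above the cutoff and none differed by 2-fold: in vitro they lay between -0.26 (Col22a1) and 0.27 (Col20a1) and in vivo between -0.48 (Col9a3) and 0.15 (Col20a1).

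The type VI chains stayed close together. All 3 read near the top of the range of values on every array, where the size of differences may be limited. Col6a1 read 13.08 in the deleted and 12.74 in the control culture, and 12.51 in the deleted and 12.52 in the control in vivo array. Col6a2 read 13.17 (deleted) and 12.93 (control) in vitro and 12.41 (deleted) and 12.46 (control) in vivo. Col6a3, whose chain carries the long N-terminal domains of the filament, read 13.01 (deleted) and 12.75 (control) in vitro and 12.66 (deleted) and 12.50 (control) in vivo. In each of the 3 genes the deleted culture was the highest of the 4 arrays, and both in vitro arrays lay above both in vivo arrays. The in vitro differences were 0.34, 0.24 and 0.26, which are 1.18-fold to 1.27-fold, and the in vivo differences were -0.01, -0.05 and 0.17. The second probe set of Col6a2 gave 0.30 and -0.13. All 3 lay between percentiles 80.2 and 86.3 of genes in vitro and between 48.5 and 71.3 in vivo. Another chain thought able to replace Col6a3 in mice, Col6a4, read 5.03 (deleted) and 5.01 (control) in vitro and 5.45 (deleted) and 6.08 (control) in vivo, mostly near the cutoff.

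**Figure D2:**
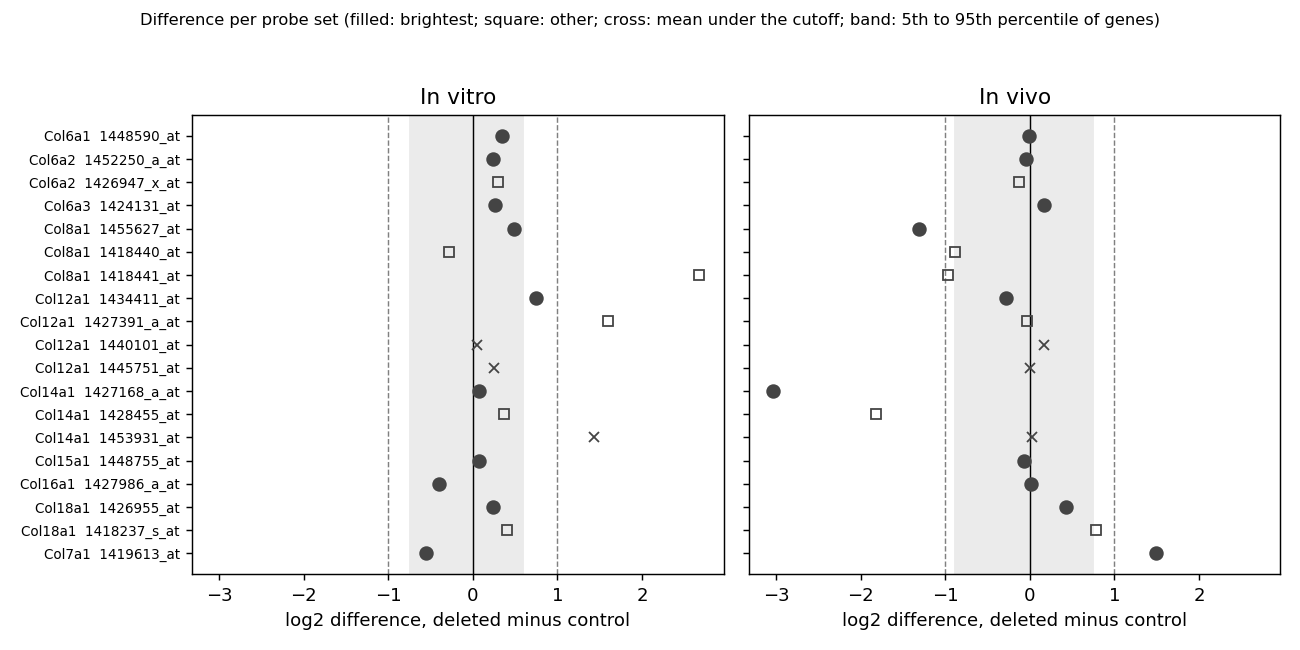
Deleted minus control signal on the arrays of a pair (x axis, log2) for each of the 19 probe sets (rows, grouped by gene), in vitro on the left and in vivo on the right. Filled points are brightest probe sets, squares other probe sets and crosses those with a mean under the cutoff; the band runs from the 5th to the 95th percentile of the 10916 genes (-0.74 to 0.59 in vitro, -0.88 to 0.75 in vivo) and dashed lines mark 2-fold. The probe sets of Col8a1, Col12a1 and Col14a1 spread widely in vitro, and those of Col8a1 lie below 0 together in vivo.

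Type VIII collagen was lower in the deleted in vivo array on all 3 of its probe sets. The brightest probe set of Col8a1 read 8.59 in the deleted and 9.90 in the control array, 2.48-fold lower (log2 -1.31, percentile 1.8 of genes). Probe set 1418440_at read 9.46 in the deleted and 10.35 in the control array (-0.89), and 1418441_at read 4.78, under the cutoff, in the deleted and 5.75 in the control array (-0.97). In vitro the same probe sets did not share a direction. The brightest read 10.79 in the deleted and 10.31 in the control culture (0.48), 1418440_at read 9.65 (deleted) and 9.93 (control), a difference of -0.29, and 1418441_at read 7.88 (deleted) and 5.20 (control), a difference of 2.68 (6.40-fold, with the control signal under the cutoff). The range of 2.96 over the probe sets in vitro lay at percentile 99.7 of the 4575 genes with several probe sets above the cutoff, whose median range was 0.48 in vitro and 0.28 in vivo. The marker values given for Col14a1 and Col7a1 hold for this in vivo pair too. No in vitro direction is given for Col8a1.

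Across all genes, 2-fold differences of probe sets other than the brightest were also more often toward a higher signal in the deleted culture. Of 7211 such probe sets above the cutoff, 8.54% exceeded the control by 2-fold or more in vitro and 1.19% fell short by as much, against 2.93% and 2.62% in vivo. The 2 member probe sets with a mean above the cutoff that were at least 2-fold higher in vitro were of this kind. They were 1418441_at of Col8a1 and 1427391_a_at of Col12a1. Probe set 1453931_at of Col14a1, with a mean under the cutoff, was 2.70-fold higher. Among all 18127 probe sets above the cutoff 3.87% were that much higher and 1.16% that much lower, and 0 of the 16 member probe sets were that much lower. In vivo 1 of the 16 was higher by 2-fold (Col7a1), against 2.86% of all, and 3 were lower (both of Col14a1 and the brightest of Col8a1), against 3.34%. The 3′ over 5′ excess given above was lower in the deleted culture for Gapdh, Actb and Pcx and higher for Tfrc. In vivo Actb, Pcx and Tfrc differed in the same directions. The part of this excess in these probe sets was not tested.

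The multiplexins differed between the systems more than with the deletion. Col15a1 read 9.52 in the deleted and 9.45 in the control culture (0.07), and 7.80 in the deleted and 7.87 in the control in vivo array (-0.07). Within each pair its arrays were nearly level. Col18a1 read 10.43 in the deleted and 10.19 in the control culture (0.24), and 9.45 in the deleted and 9.02 in the control array in vivo (0.43). Its second probe set read 9.97 (deleted) and 9.57 (control) in vitro, a difference of 0.40, and 9.26 (deleted) and 8.48 (control) in vivo, a difference of 0.78. Col18a1 was thus higher in the deleted array of each pair on both probe sets, by 1.18-fold to 1.72-fold, under the 2-fold threshold throughout.

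Type VII collagen had the largest excess among the members. Col7a1 read 9.17 in the deleted and 7.68 in the control array in vivo, 2.81-fold higher (log2 1.49, percentile 99.1 of genes). In vitro it read 6.50 in the deleted and 7.06 in the control culture, 1.47-fold lower (log2 -0.55, percentile 10.8). The deleted in vivo array was the highest of the 4 and the deleted culture the lowest. Some other genes of the dermal-epidermal junction were high on the same array. Of 10 genes of that list with a probe set 5 were at least 2-fold higher in vivo, where 1.87% of all 18193 genes with a probe set and 2.81% of those above the cutoff were, namely the epidermal laminin chains Lamb3 (3.46) and Lama3 (2.71), the transmembrane collagen Col17a1 (2.88) and the integrin chains Itga6 (1.62) and Itgb4 (1.58). Lama3, Lamb3 and Col17a1 had a mean above the cutoff only through the deleted in vivo array. Of the other 5 genes, Nid1 (-0.42), Nid2 (-0.48) and Lamc1 (-0.43), which are general basement membrane genes, read lower there, and Fras1 (-0.08) and Frem2 (-0.01) were under the cutoff.

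Many keratinocyte markers were high on the same array as Col7a1. Of 14 markers with a probe set 9 were at least 2-fold higher in the deleted in vivo array, against 1.87% of all genes with one. Of these 9, Col17a1, Dsp and Lamb3 had a mean above the cutoff only through that array. Col17a1, Lamb3 and Itgb4 are also on the junction list above, so the counts of these lists overlap. The summed signal, on the log2 scale over 14 markers, was 12.73 in the deleted and 9.44 in the control array in vivo, and 9.92 in the deleted and 10.46 in the control culture. Of 12 skeletal muscle markers with a probe set 9 were also at least 2-fold higher in vivo (summed signal 11.84 deleted and 9.80 control), 3 of them (Myh3, Tnnc2 and Tnnt3) above the cutoff only through the deleted array. The part of these cells in the Col7a1 difference was not tested. The other 5 keratinocyte markers were not at least 2-fold higher: Krt1 (4.55 deleted, 4.75 control), Krt15 (5.18 deleted, 5.37 control), Trp63 (5.19 deleted, 5.64 control) and Krt10 (5.42 deleted, 5.75 control) lay under or near the cutoff, and Epcam read 7.73 in the deleted and 7.66 in the control array. Cdh1, the E-cadherin of epithelia, was among the 9 (5.22 deleted, 3.56 control), with both signals under the cutoff. The fibroblast list as a whole had an in vivo median of -0.05, with 1 of 13 markers at least 2-fold lower, Lum (8.94 deleted, 10.001 control). Summed endothelial signal was 7.83 (deleted) and 7.69 (control), and summed smooth muscle and pericyte signal 14.05 (deleted) and 13.80 (control), in vivo.

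**Figure D3:**
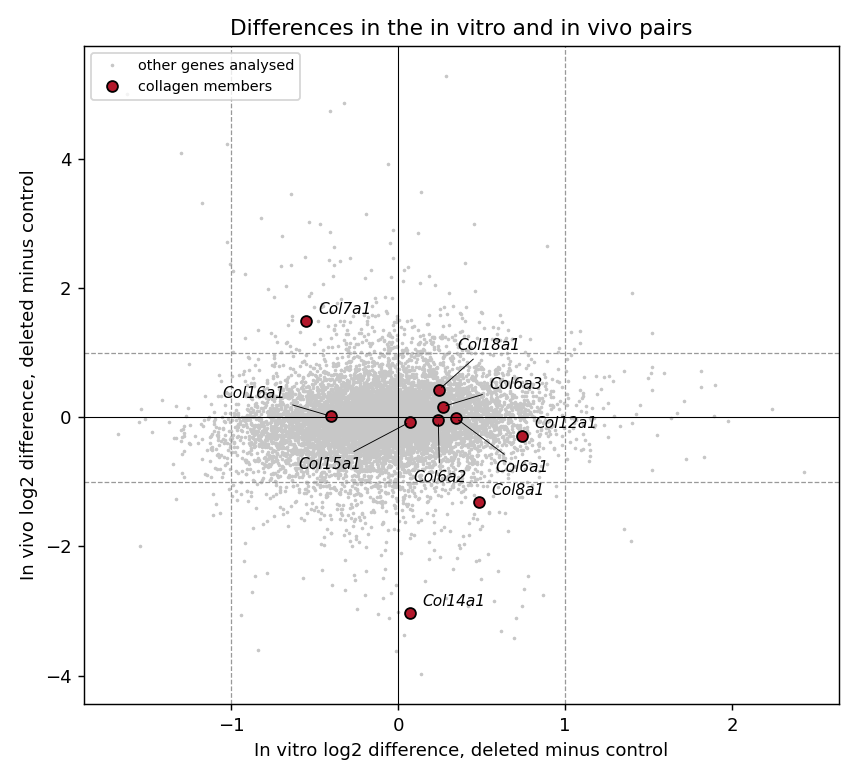
In vitro difference (x axis) against in vivo difference (y axis), log2 deleted minus control, for 10916 genes (grey) and the 10 collagen members (red), with dashed lines at 2-fold. Col14a1 and Col8a1 lie below and Col7a1 above the in vivo lines, and no member lies beyond an in vitro line.

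Counted over genes, 0 of 10 members reached 2-fold in either direction in vitro, where 0.788% of genes were that much higher and 1.15% lower. In vivo 1 of 10 members was at least 2-fold higher, Col7a1, where 2.81% of genes were, and 2 of 10 were at least 2-fold lower, Col14a1 and Col8a1, where 3.81% were. With 10 members such counts rest on single genes. The median over the members was 0.24 in vitro, with 8 of 10 above 0, against -0.06 and 42.5% over all genes. In vivo it was -0.03, with 4 of 10 above 0, against -0.03 and 46.4%. Genes of long span (above the 75th percentile, 2723 genes) had an in vitro median of 0.03 with 53.8% above 0, and the brightest genes (above the 90th percentile of level, 1092 genes) had 0.01 and 51.4%. The part of length or level in the members' in vitro median was not tested.

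Deletion was then tested across both pairs, with the 2 deleted arrays against the 2 control arrays and the system as a covariate. In both pairs only the deleted cells had Cre, so deletion and the presence of Cre cannot be told apart. By limma with Benjamini-Hochberg adjustment over 10916 genes, 0 of 10 members passed an adjusted p of 0.05. The same fit called 0 genes in all (0% higher and 0% lower), and at an unadjusted p under 0.05 it held 759 genes (6.95%) and 0 members. The largest shared estimate was that of Col14a1 at -1.48 ± 0.74 (SE, 2 pairs; limma adjusted p = 0.69), and that of Col18a1, higher in both pairs, was 0.34 ± 0.20 (limma adjusted p = 0.71). The fit had 1 residual degree of freedom per gene and borrowed its spread from all genes. Between the 2 pairs, the in vivo minus in vitro difference reached -3.10 for Col14a1, 2.05 for Col7a1, -1.79 for Col8a1 and -1.02 for Col12a1, and 8 of 10 members had opposite signs in the 2 pairs, as did 44.7% of all genes. Of these 8, Col6a1, Col6a2, Col15a1 and Col16a1 differed by at most 0.07 (to 2 decimals) in vivo, and Col14a1 and Col15a1 in vitro. The sign turned for Col6a1 in vivo when differences were centred on their median (0.02), for Col16a1 in vivo with the values as deposited (-3e-04), and for Col8a1 in vitro (-0.29) and Col12a1 in vivo (0.04) when probe sets were summarised by their median. With 1 array per group this contrast could not be tested.

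The level in the in vivo arrays was set against that in the in vitro arrays in the same model. Col15a1 was lower in vivo, at 7.80 and 7.87 in the in vivo arrays and 9.52 and 9.45 in the in vitro arrays, 3.15-fold lower (log2 -1.65 ± 0.20 SE, limma adjusted p = 0.034), and the adjusted p ranged from 0.015 to 0.071 over 7 alternatives. It missed the threshold with no level filter, with genes summarised by the median of their probe sets, and with probe sets as the unit of the fit. It was the 1 member of 10 that passed lower in vivo, where 2.77% of genes did, and 0 members passed higher, where 1.35% did. Col18a1 was 2.11-fold lower in vivo but missed the threshold (-1.08 ± 0.20, limma adjusted p = 0.064). Col14a1 (-2.05 ± 0.74), Col8a1 (-1.31 ± 0.46) and Col7a1 (1.65 ± 0.51) also missed it, with their deleted in vivo array carrying much of the estimate. Between controls alone the in vivo minus in vitro difference was -0.50 for Col14a1, -0.41 for Col8a1, 0.62 for Col7a1, -1.58 for Col15a1 and -1.17 for Col18a1. In 7 of 10 members both in vivo arrays lay below both in vitro arrays, against 26.4% of genes, and in 1 member, Col7a1, both lay above, against 31.7%. The arrays of Col12a1 and Col16a1 overlapped between systems. Of 5 adipocyte markers above the cutoff 3 passed lower in vivo, as did 1 of 13 fibroblast markers, against 2.77% of genes. The part of such cells in the members' levels was not tested. Both in vitro arrays were of cells given an adenovirus, and the labels of the in vivo arrays name none. The system, the virus and any batch of arrays are confounded and cannot be told apart.

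**Figure D4:**
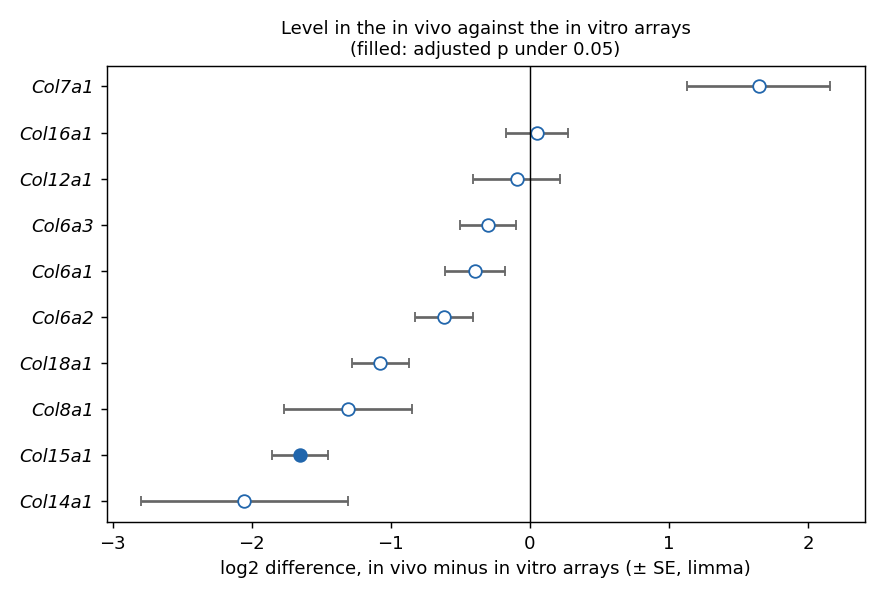
Difference in level between the in vivo and the in vitro arrays (x axis, log2, in vivo minus in vitro, with the SE of the limma fit on 4 arrays) for each member (rows). The filled point, Col15a1, passed an adjusted p of 0.05. From Col14a1 (-2.05) to Col6a3 (-0.30) the estimates are below 0. Col12a1 (-0.10) and Col16a1 (0.05) lie near 0, and Col7a1 (1.65) stands far on the other side.

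Other collagen families were read beside the members. Over all genes above the cutoff, 0.788% were at least 2-fold higher and 1.15% lower in vitro. In vivo these shares were 2.81% and 3.81%. Of 9 fibrillar collagen genes above the cutoff, 0 differed by 2-fold in vitro, and in vivo Col5a3 was higher (10.89 deleted, 9.18 control, log2 1.71) and Col11a1 lower (6.76 deleted, 8.98 control, log2 -2.21), with a list median of -0.07. Col1a1, the main fibril chain of skin, differed by 0.18 in vitro and 0.16 in vivo, with signals near the top of the range. Of 4 basement membrane genes, 0 differed by 2-fold in vitro and 1 was lower in vivo, Col4a5 (6.67 deleted, 9.13 control, log2 -2.46), while Col4a1 and Col4a2, the common pair, were at 0.14 and 0.13 in vivo. Of 4 transmembrane collagens with a probe set 2 were at least 2-fold higher in vivo, against 1.87% of all genes with one. These were Col17a1 (2.88) and Col23a1 (1.35), and both were lower in vitro (-0.41 and -0.84). Col17a1, which is also on the junction and keratinocyte lists, had a mean above the cutoff only through the deleted in vivo array. Among the short-chain relatives of Col8a1, Col8a2 was under the cutoff on average and read 4.01 in the deleted and 5.06 in the control array in vivo.

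**Figure D5:**
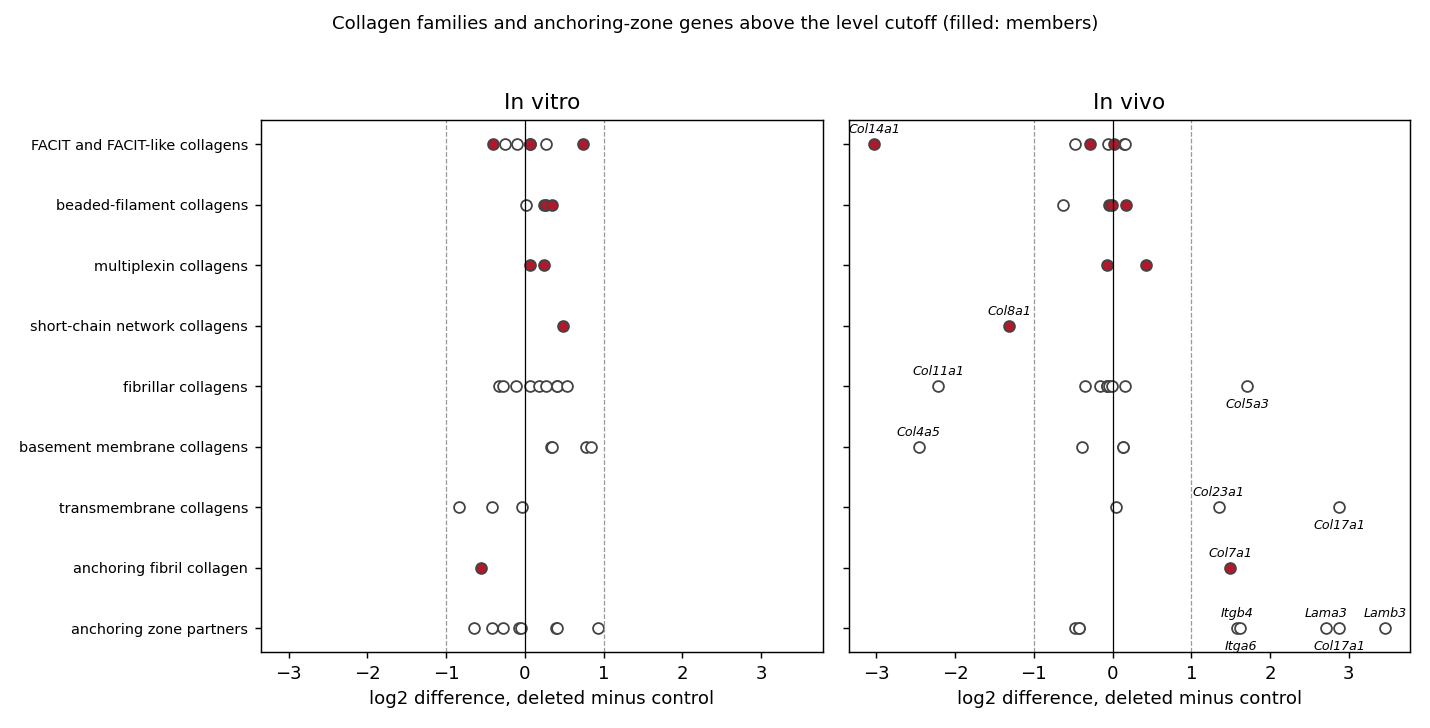
Difference between deleted and control arrays (x axis, log2) for collagen families and anchoring-zone genes above the cutoff (rows), in vitro on the left and in vivo on the right; filled points are members and genes at least 2-fold different are named. The in vitro points all lie within 2-fold, and the in vivo points of the anchoring zone reach 3.46 (Lamb3). Lamb3, Lama3 and Col17a1 passed the cutoff only through the deleted in vivo array.

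Receptors and partners of these collagens differed less than Col14a1. Of 8 collagen receptors above the cutoff 1 was at least 2-fold higher in vitro, where 0.788% of genes were. It was the integrin beta chain Itgb1 (11.57 deleted, 10.49 control, 1.09), and 0 receptors differed by 2-fold in vivo. The type VI receptor Antxr1 (0.01 in both pairs), its relative Antxr2 (0.14 in vitro, -0.49 in vivo) and Cspg4, also called NG2, which binds type VI collagen (0.22 in vitro, 0.61 in vivo), all lay within 2-fold. Of 11 binding partners, 2 were lower by 2-fold in vivo, where 3.81% of genes were. These were the filament adaptor Matn2 (6.30 deleted, 8.06 control) and the small proteoglycan Lum (8.94 deleted, 10.001 control). In vivo 9 of 11 partners were below 0, while over all genes 46.4% were above 0. Dcn, the proteoglycan that links FACITs to fibrils, was at 0.22 in vitro and 0.12 in vivo. Of 13 genes of collagen synthesis and folding, 0 differed by 2-fold in either pair, with medians of 0.13 in vitro and -0.05 in vivo.

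Genes with the most similar profile over the 4 arrays were found by the Euclidean distance between mean-centred values. They were chosen on these same values, so their likeness to the member follows from the choice. For Col14a1 they were AW551984 (distance 0.28), Sema3a (0.39) and Itgbl1 (0.42), each low in the deleted in vivo array, at 5.28, 4.82 and 4.80. For Col8a1 they were Tgfbr2, Chaserr and Srpx, with in vivo differences of -1.06, -1.03 and -1.12. For Col7a1 they were Cd24a, Tnnt1 and Inhba, with in vivo differences of 1.37, 1.53 and 1.76. Of these, Tnnt1 had a mean above the cutoff only through the deleted in vivo array. For Col12a1 they included Sec23a and Zkscan3, and the third was Notch3 (in vitro 0.77, in vivo -0.20). For Col15a1 the nearest was Sdc2, at 8.46 and 8.47 in the in vivo arrays and 10.20 and 10.10 in the in vitro arrays. For Col18a1 they were Oas2, Htra1 and H2-K1. The type VI chains and Col16a1 had neighbours at distances of 0.02 to 0.05, among them Aifm1 for Col6a1, Pard3 for Col6a2, Ints14 for Col6a3 and Bad for Col16a1.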

How the data were processed

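Poly(A) RNA was copied from an oligo(dT) primer carrying a T7 promoter and transcribed into biotin-labelled cRNA, per the labels' protocols. The authors deposited log2 expression values (2.87 to 13.8) for 45101 probe sets; the sources used here name no software, background correction or normalization, and the log2 scale was read from the values. They were quantile normalized (limma 3.58.1, R 4.3.3). Names came from the platform annotation, and of 34945 with 1 gene 34741 matched RefSeq; 64 control probe sets were left out. Each gene took its brightest probe set, and genes whose mean reached the 40th percentile were analysed. Within a pair, log2 differences were counted at 2-fold with no test. Deletion and system were fitted in limma (lmFit, eBayes) on 4 arrays, with Benjamini-Hochberg adjustment at 0.05, after a run on simulated data. Alternatives covered normalization, filter, probe set choice, threshold and model. The text names all members, at most 4 genes per list and comparison, relatives of the members and the 3 nearest profiles per member; Krt1, Krt10, Krt15, Trp63, Epcam, Cdh1, Fras1, Frem2, Nid1, Lamc1, Col1a1, Col4a1, Col4a2, Col8a2, Dcn, Antxr1 and further genes with small differences were named after their values were seen. Members and lists were chosen with earlier results of these data known.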

Additional observations from a re-analysis of the deposited data

Results flagged for a closer look

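With 1 array per group, a member is listed here when its difference had opposite signs in the 2 pairs, and in each case the contrast itself was not tested. The in vivo minus in vitro difference was -3.10 for Col14a1, where the in vitro pair was nearly level on the brightest probe set. It was 2.05 for Col7a1, higher in the deleted array in vivo and lower in the deleted culture. It was -1.79 for Col8a1, whose probe sets disagreed in vitro: by its brightest probe set the signs were opposite, and by the median of its probe sets it was lower in both pairs (-0.29 in vitro, -1.31 in vivo). It was -1.02 for Col12a1, higher in the deleted culture. Smaller contrasts were 0.42 for Col16a1, -0.35 for Col6a1, -0.29 for Col6a2 and -0.14 for Col15a1, the last with differences of 0.07 and -0.07 in its pairs. Col16a1 was lower in the deleted culture (-0.40) and nearly level in vivo (0.02).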

How the results depend on the processing

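The shared deletion fit was paired, with the system as the block of each deleted and control array, and without that block it also held 0 members. The system effect called 1 member, against 2 with loess within each pair (Col18a1 joined, limma adjusted p = 0.049) and 0 with no level filter, with the probe sets of a gene summarised by their median or with probe sets as the unit of the fit. At 1.5-fold 1 member was higher in vitro, against 0 at 2-fold. At 3-fold 0 members were higher and 1 lower in vivo, against 1 and 2. The shared deletion effect held 0 members under 9 alternatives. Near-zero estimates turned sign with the values as deposited, the shared effect of Col15a1 (-0.036) and the system effect of Col16a1 (-0.021), and the latter also with loess (-0.021). The in vivo difference of Col14a1 ranged from -3.03 to -1.81, of Col8a1 from -1.37 to -1.28 and of Col7a1 from 1.43 to 1.55, while the in vitro Col8a1 value was -0.29 when probe sets were summarised by their median. Over all genes, those higher made up 40.8% of 2-fold calls in vitro, against 55.9% after centring, 57% with loess and 70.7% with that median. Signals under the cutoff limit the size of their differences, and signals near the top of the range may do so too.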
